A study of Mus musculus with 9 samples.

Results

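The genes described here are 9 chemokine genes and the growth factor gene Csf1, followed across 9 whole-retina RNA-seq libraries of mouse. They were chosen by symbol, as leukocyte attractants and the main microglial growth factor, and all 10 were found among the 47729 Ensembl genes of the deposited count table. The Yap CKO group had 3 retinas at postnatal day 60 (P60) from mice with floxed Yap alleles and Rax-CreERT2, in which a Cre switched on by tamoxifen acts in Müller cells, the radial glia of the retina. The control group had 3 P60 retinas from mice with floxed Yap and no Cre. Animals of both groups received 4-hydroxytamoxifen (4-OHT) by intraperitoneal injection at P10. The C57 group had 3 wild-type retinas at P30, taken over by the submitters from an earlier series. All were on the C57Bl6/J background, and each P60 library came from 1 frozen retina. The genotype field of the control samples reads as Yap CKO without Cre, while the series' design text calls them controls, the name kept here. The P60 library names carry the letters MNU, an abbreviation often used for N-methyl-N-nitrosourea, an alkylating agent that kills photoreceptors, but the labels describe no such treatment. The P60 groups and C57 therefore differ in age, genotype, injection, source series and depth at once, and possibly in exposure to MNU. These differences cannot be told apart.

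Chemokines are small secreted proteins that attract leukocytes through G-protein-coupled receptors. CC chemokines such as Ccl2 draw mainly monocytes, Cxcl1 and Cxcl2 draw neutrophils through Cxcr2, and Cxcl10 draws T cells through Cxcr3. Cx3cl1 (fractalkine) is made by neurons as a membrane-bound protein and signals to microglia through Cx3cr1, and Csf1 is a ligand of Csf1r, the receptor on which microglia depend. In the injured retina Ccl2 is known to be made by Müller cells and microglia. Many of these genes are induced by cytokines through NF-kappa-B, and Yap is a transcriptional coactivator that works with TEAD factors.

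Promoter sequences were taken for the members whose promoter was in the RefSeq table of GRCm38.p6, 7 of 10, and 6 of them are shown because the members fall into genes with and without a kappa-B match. Ccl2, Ccl7 and Ccl4 were not in it and were not searched. The motif counts therefore do not cover Ccl2 and Ccl7, the genes called lower in Yap CKO below. Each line gives the 250 bases before the RefSeq start, 5′ to 3′ on the strand of the gene, with matches to the kappa-B motif GGGNNNNNCC (either strand, overlapping matches joined) in capitals. The windows lie at chr5:90890995-90891244 (plus strand) for Cxcl1, chr5:90903649-90903898 (plus strand) for Cxcl2, chr5:92348890-92349139 (minus strand) for Cxcl10, chr3:107760470-107760719 (minus strand) for Csf1, chr11:82101595-82101844 (plus strand) for Ccl12 and chr11:83649379-83649628 (minus strand) for Ccl3. The start is that of RefSeq, which lies 28 bases downstream of the GENCODE start used below for Cxcl2, 4 bases downstream for Cxcl1 and 23 bases upstream for Ccl3. For Cx3cl1, not shown, it lies 171 bases downstream, so most of that window lies past the GENCODE start.
Cxcl1: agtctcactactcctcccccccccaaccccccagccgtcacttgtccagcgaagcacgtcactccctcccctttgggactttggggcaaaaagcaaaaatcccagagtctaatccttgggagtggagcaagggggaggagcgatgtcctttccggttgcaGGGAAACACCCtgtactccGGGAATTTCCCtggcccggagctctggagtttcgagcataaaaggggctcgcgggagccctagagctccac
Cxcl2: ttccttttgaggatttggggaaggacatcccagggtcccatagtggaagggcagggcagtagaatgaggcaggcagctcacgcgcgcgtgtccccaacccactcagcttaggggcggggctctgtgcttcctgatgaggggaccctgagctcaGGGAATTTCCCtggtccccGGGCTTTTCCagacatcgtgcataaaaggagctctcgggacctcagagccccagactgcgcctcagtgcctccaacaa
Cxcl10: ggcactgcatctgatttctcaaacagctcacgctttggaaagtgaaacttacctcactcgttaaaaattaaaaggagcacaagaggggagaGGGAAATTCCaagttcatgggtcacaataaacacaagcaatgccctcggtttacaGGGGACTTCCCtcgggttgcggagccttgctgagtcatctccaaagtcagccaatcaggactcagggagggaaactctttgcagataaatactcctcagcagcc
Csf1: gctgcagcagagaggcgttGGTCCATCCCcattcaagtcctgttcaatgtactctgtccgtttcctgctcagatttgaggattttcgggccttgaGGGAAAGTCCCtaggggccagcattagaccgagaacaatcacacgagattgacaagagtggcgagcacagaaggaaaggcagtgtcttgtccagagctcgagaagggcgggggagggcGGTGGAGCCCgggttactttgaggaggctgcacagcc
Ccl12: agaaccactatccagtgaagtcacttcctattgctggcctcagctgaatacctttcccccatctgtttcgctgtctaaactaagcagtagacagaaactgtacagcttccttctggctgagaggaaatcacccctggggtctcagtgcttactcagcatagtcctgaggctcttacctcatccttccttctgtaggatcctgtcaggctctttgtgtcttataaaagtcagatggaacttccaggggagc
Ccl3: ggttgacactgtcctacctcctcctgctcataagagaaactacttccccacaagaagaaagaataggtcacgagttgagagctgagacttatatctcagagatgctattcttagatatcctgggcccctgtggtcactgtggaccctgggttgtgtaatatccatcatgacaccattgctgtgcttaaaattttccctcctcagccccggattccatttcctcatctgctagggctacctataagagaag
Cxcl1, Cxcl2, Cxcl10 and Csf1 held the motif, 4 of the 7, and Ccl12, Ccl3 and Cx3cl1 did not. The motif is loose: 45.8% of the 32851 promoters of the table held it in the same window. The search was first made on the whole 300 bases of the table's window, which reach past the start, and there 50.8% of promoters and again 4 of 7 members held it. A narrower kappa-B consensus was tried only after the members' matches had been seen. It was in 3.90% of promoters and in 4 of the 7 members, and since it was picked with their sites in view, that contrast supports nothing. The AP-1 motif TGANTCA was in 1 of 7 (Cxcl10), against 6.75% of promoters, and the interferon-response motif GAAANNGAAA in 1 of 7 (Cxcl10), against 2.98%. The TEAD motif CATTCC was in 0 of 7, against 12.6% of promoters, which says only that these letters are not in these windows.

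Total counts were 34739679 to 37111783 in the Yap CKO libraries, 35759106 to 37629264 in the control libraries and 13760765 to 16808499 in the C57 libraries. Levels are given as normalized counts (CPM, which removes differences in depth) scaled over the 9 libraries, and log2 fold changes and adjusted p-values come from edgeR's quasi-likelihood test on the 6 libraries of a comparison. Yap1, the deleted gene, averaged 20.2 CPM in Yap CKO and 61.2 CPM in control retinas (log2 fold change -1.60, adjusted p = 0.0327). Lens transcripts were high in Yap CKO 3 (summed 1124 CPM), with 24.4 CPM in Yap CKO 2, 2.27 CPM in Yap CKO 1 and at most 15.5 CPM in any control or C57 library. All 3 control libraries carried Y-linked transcripts and almost no Xist, as did Yap CKO 3 and C57 2, while Yap CKO 1 and 2 and C57 1 and 3 carried Xist (172 and 207 CPM in Yap CKO 1 and 2). Sex is thus partly confounded with the comparison of Yap CKO with control. Summed rod markers were 958 to 21510 CPM in Yap CKO, 3917 to 20290 CPM in control and 99170 to 115300 CPM in C57 retinas. Müller cell markers summed to 1832 to 2225 CPM in Yap CKO, 2040 to 2505 CPM in control and 6427 to 6838 CPM in C57 retinas. Markers of the ciliary epithelium, which borders the retina, summed to 119 to 133 CPM in Yap CKO and 165 to 291 CPM in controls. Those sums did not overlap, and C57 retinas had 185 to 259 CPM. Col18a1 was the largest part of the P60 sums, at means of 81.9 CPM in Yap CKO and 182.9 CPM in control retinas. The mean log2 CPM of the markers did overlap, at 3.075 to 3.941 in Yap CKO and 3.868 to 4.549 in control retinas. DESeq2 called 2 of those 5 markers lower in Yap CKO and edgeR called 0, with 2 at an unadjusted p under 0.05. Ganglion cell markers summed to 2122 to 2278 CPM in Yap CKO and 1852 to 2090 CPM in control retinas, also without overlap. Nefl was the largest part of those sums, at means of 1424 CPM in Yap CKO and 1264 CPM in control retinas. Their mean log2 CPM overlapped narrowly, at 7.503 to 7.574 in Yap CKO and 7.382 to 7.509 in control retinas. The part of these tissues in the chemokine differences was not tested. In whole-retina RNA, fewer cells of a type and less RNA per cell cannot be told apart.

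**Figure D1:**
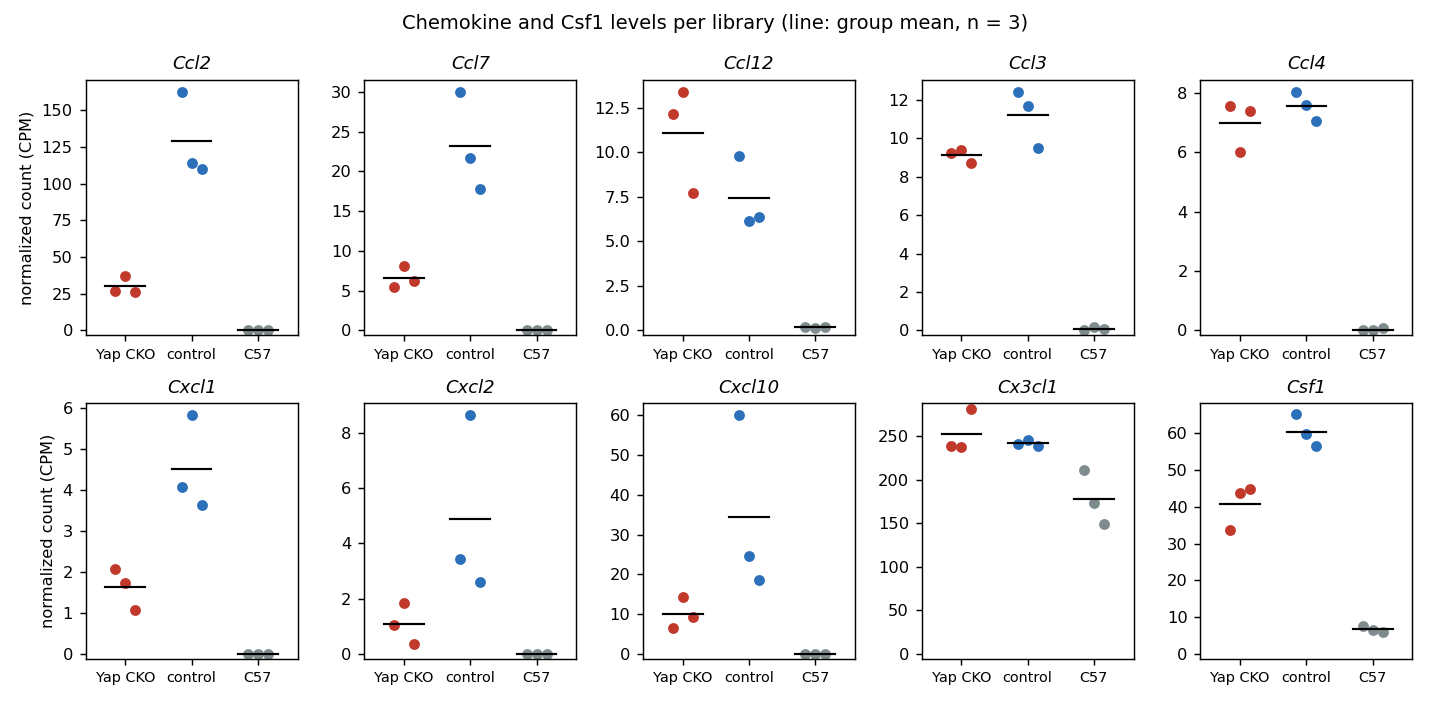
Normalized counts (CPM) of the 10 genes in each library, by group, with a point for each of the 3 libraries and a line at the group mean; each panel has its own linear axis. Ccl2 lies between 26.4 and 36.8 CPM in Yap CKO, between 110 and 163 CPM in control and at or near 0 in C57 retinas, while Cx3cl1 is high in all 3 groups.

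Of the monocyte attractants, Ccl2 and its neighbour Ccl7 were lower in Yap CKO than in control retinas, and Ccl12 was not. Ccl2, the main ligand of Ccr2, had 26.5, 36.8 and 26.4 CPM in the Yap CKO libraries, against 163, 114 and 110 CPM in the control libraries. No Yap CKO library came near a control library. Ccl2 was 4.32-fold lower (log2 fold change -2.11, SE 0.20, 95% interval -2.60 to -1.62, adjusted p = 0.0369 by edgeR). Ccl7, which also binds Ccr2, had 5.46, 8.12 and 6.19 CPM in Yap CKO, against 30.1, 21.7 and 17.8 CPM in control retinas. Those groups did not overlap either, and Ccl7 was 3.52-fold lower (log2 fold change -1.82, SE 0.23, adjusted p = 0.0496 by edgeR). Both calls were lost in some fits with a library left out. Without Yap CKO 1, Yap CKO 2, control 1 or control 2, the adjusted p of Ccl2 by edgeR was 0.116, 0.0751, 0.0561 and 0.104. That of Ccl7 was 0.116, 0.148, 0.111 and 0.151 in the same order. The log2 fold change in those fits was -2.296 to -1.918 for Ccl2 and -2.003 to -1.595 for Ccl7. Ccl7 also missed the threshold by limma-voom (adjusted p = 0.0814), with RLE scaling (0.0513) and with upper-quartile scaling (0.0627). Without the lens-rich Yap CKO 3, the adjusted p was 0.0323 for Ccl2 and 0.0421 for Ccl7, but that fit sets 2 libraries with Xist against 3 with Y-linked transcripts. Among the libraries with Y-linked transcripts, Yap CKO 3 had 26.4 CPM of Ccl2 and 6.19 CPM of Ccl7, against at least 110 and 17.8 CPM in the controls. It was the only Yap CKO library among them, and a single library cannot separate sex, genotype and lens content.

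Ccl12, a mouse monocyte chemokine of the same cluster, had 12.2, 13.4 and 7.74 CPM in Yap CKO, against 9.78, 6.14 and 6.37 CPM in control retinas. The groups overlapped, and the log2 fold change of 0.58 (95% interval -0.02 to 1.18) did not pass (adjusted p = 0.298 by edgeR). The genes lie in a row on chromosome 11 (GRCm38, GENCODE M21), with Ccl2 at chr11:82035571-82037453, Ccl7 at chr11:82045712-82047525 and Ccl12 at chr11:82101845-82103400, all on the plus strand. The Ccl7 start is 10.1 kb and the Ccl12 start 66.3 kb from that of Ccl2. Ccl11, an eosinophil attractant between them at 22.3 kb, was not called (log2 fold change -0.09, 95% interval -0.91 to 0.74, adjusted p = 0.938 by edgeR).

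**Figure D2:**
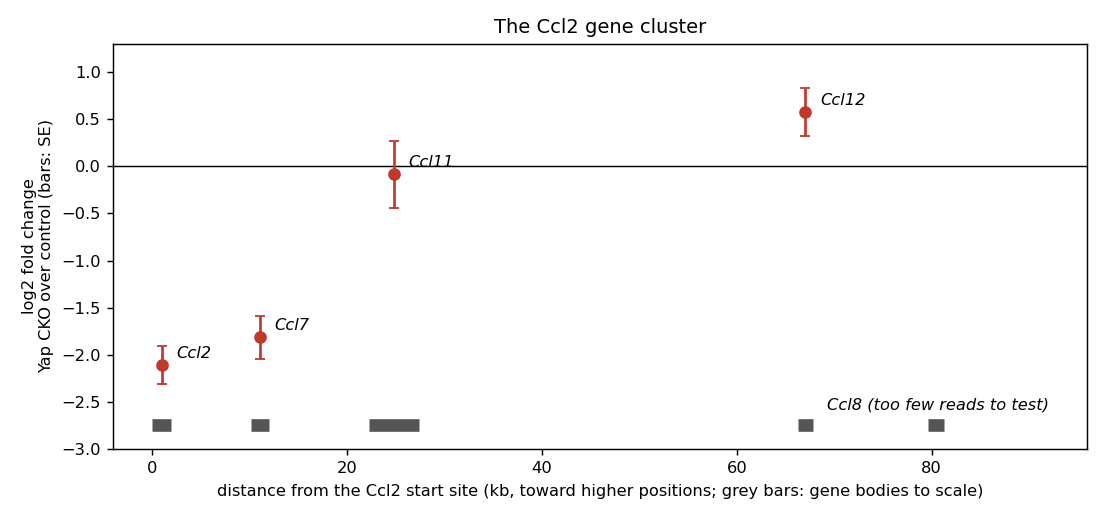
Log2 fold change, Yap CKO over control, with its SE, against distance in kb from the Ccl2 start site, with gene bodies to scale as grey bars. Ccl2 and Ccl7 lie at -2.11 and -1.82, Ccl11 near 0 and Ccl12 at 0.58; Ccl8 had too few reads to be tested.

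Ratios within a library do not depend on scaling, and 10 of them were computed, chosen after the values had been seen. Ccl12 reads came to 37.2% ± 8.27 of Ccl2 reads in Yap CKO and 5.73% ± 0.321 in control retinas (SD, n = 3 each), with no overlap. Ccl3 reads came to 31.2% ± 4.97 of Ccl2 reads in Yap CKO and 8.86% ± 1.32 in control retinas. The ratio of Ccl7 to Ccl2 differed less, at 22.0% ± 1.45 in Yap CKO and 17.9% ± 1.499 in control retinas. Each of these 3 ratios gave p = 0.1 by a two-sided exact permutation test, the smallest that 3 against 3 libraries allow, so none could pass 0.05. The ratio of Cxcl10 to Ccl2 overlapped between groups, at 33.1% ± 7.62 in Yap CKO and 25.1% ± 10.4 in control retinas (exact permutation p = 0.3).

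**Figure D3:**
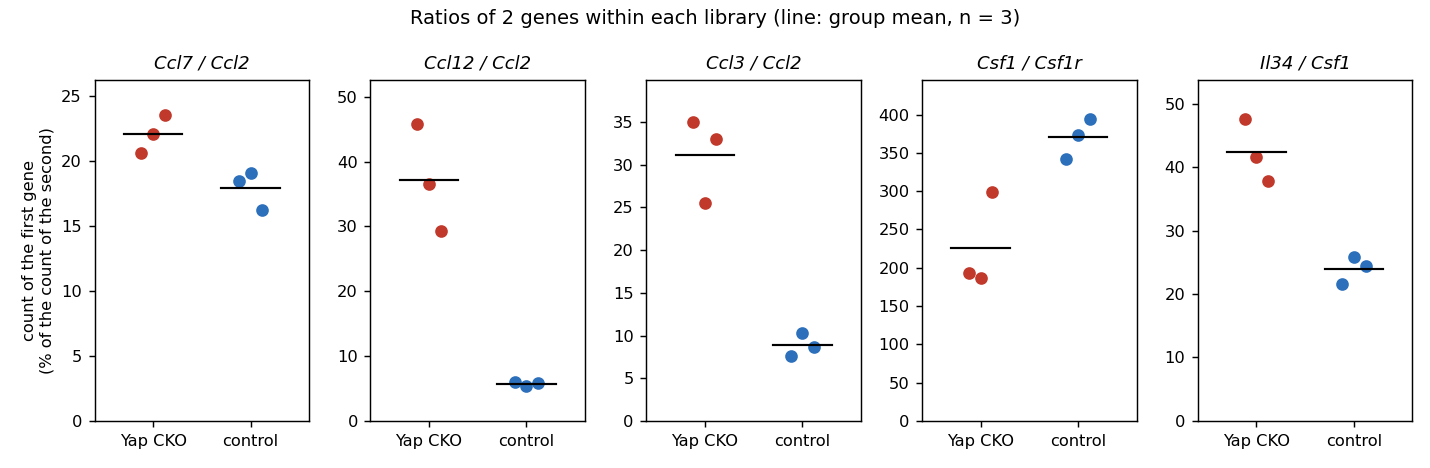
Count of one gene as a percent of the count of another in the same library, for the Yap CKO and control groups, with a point per library and a line at the mean. Ccl12 over Ccl2 and Il34 over Csf1 are higher in every Yap CKO library than in any control library, and Csf1 over Csf1r is lower.

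Ccl3 and Ccl4, chemokines made largely by microglia and macrophages, differed little between the P60 groups. Ccl3 had 9.27, 9.38 and 8.71 CPM in Yap CKO, against 12.4, 11.7 and 9.52 CPM in control retinas. The lowest control library lay just above the Yap CKO range, and the log2 fold change of -0.30 (95% interval -0.58 to -0.02) did not pass (adjusted p = 0.249 by edgeR). Ccl4 had 7.55, 5.995 and 7.39 CPM in Yap CKO, against 8.05, 7.58 and 7.05 CPM in control retinas. These ranges overlapped, with a log2 fold change of -0.12 (95% interval -0.41 to 0.17, adjusted p = 0.678 by edgeR). Both lie on chromosome 11, Ccl3 at chr11:83647844-83649355 (minus strand) and Ccl4 at chr11:83662584-83664683 (plus strand).

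Cxcl1, Cxcl2 and Cxcl10 had lower levels in every Yap CKO library than in any control library, but none passed the edgeR test. Cxcl1, a neutrophil-attracting chemokine gene at chr5:90891241-90893115, had 2.07, 1.73 and 1.07 CPM in Yap CKO, against 4.08, 5.82 and 3.63 CPM in control retinas. Its log2 fold change was -1.48 (95% interval -2.13 to -0.83), with an adjusted p of 0.0746 by edgeR and 4.88e-05 by DESeq2. By edgeR it passed without Yap CKO 3 (adjusted p = 0.0276) and with no count filter (0.0146). Cxcl2, a related neutrophil-attracting chemokine gene at chr5:90903871-90905938, had 1.06, 1.86 and 0.348 CPM in Yap CKO, against 3.44, 8.63 and 2.59 CPM in control retinas. Its spread was wide in both groups, and the log2 fold change of -2.17 had a 95% interval of -3.98 to -0.36 (adjusted p = 0.215 by edgeR). It was -2.81 without Yap CKO 2 and -1.47 without control 2. Of its 50-base stretches, 5.84% also occur in Cxcl3, so a small part of its reads could be shared. Cxcl10, an interferon-induced chemokine gene at chr5:92346638-92348889, had 6.52, 14.4 and 9.40 CPM in Yap CKO, against 60.0, 24.7 and 18.6 CPM in control retinas. Control 1 stood well above the other control libraries, and the log2 fold change was -1.77 (95% interval -3.26 to -0.27, adjusted p = 0.224 by edgeR), or -1.11 without control 1. Cxcl10 shares 133 exon bases with Art3 on the opposite strand, and the strand setting used in counting is not given in the sources used here.

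Cx3cl1, at chr8:94772009-94782427, was not called between the P60 groups, and its interval was narrow. It had 238, 237 and 281 CPM in Yap CKO, against 241, 245 and 238 CPM in control retinas. The log2 fold change was 0.06 (95% interval -0.14 to 0.25, adjusted p = 0.785 by edgeR), and -0.03 without Yap CKO 3. Csf1, at chr3:107741048-107760469 on the minus strand, had 33.6, 43.7 and 44.8 CPM in Yap CKO, against 65.1, 59.7 and 56.5 CPM in control retinas. Every Yap CKO library lay below every control library, with a log2 fold change of -0.57 (SE 0.12, 95% interval -0.85 to -0.30). That missed the threshold by edgeR (adjusted p = 0.0879) and passed by DESeq2 (adjusted p = 0.00148) and, by edgeR, without Yap CKO 3 (0.0324).

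**Figure D4:**
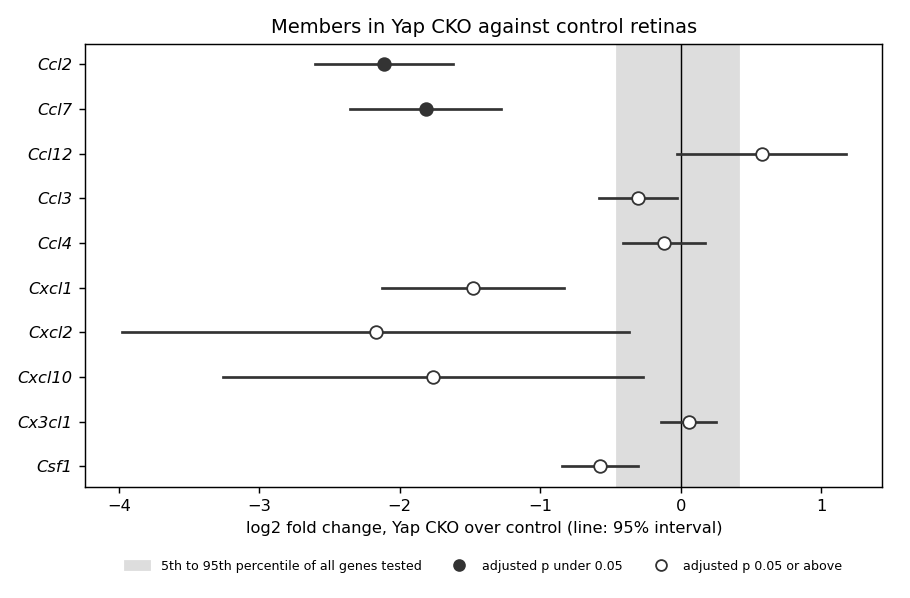
Log2 fold change of each gene, Yap CKO over control, with its 95% interval; filled points have an edgeR adjusted p under 0.05, and the grey band spans the 5th to 95th percentile of all genes tested (-0.45 to 0.41). Ccl2, Ccl7, Cxcl1, Cxcl2, Cxcl10 and Csf1 lie left of the band, and 2 of them are filled.

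Counted together, 2 of the 10 genes passed as lower in Yap CKO and 0 as higher by edgeR, where 0.181% of all genes tested passed as lower. At an unadjusted p under 0.05, 7 were lower, against 9.25% of all genes. DESeq2 called 4 lower, against 3.38% of its genes. The groups did not overlap, with Yap CKO lower, for 7 of the 10, against 11.8% of all genes. The median log2 fold change was -1.03 over the 10 genes and 0.01 over all genes tested. Over the 14 tested of 27 other chemokine ligands it was 0.08. These genes and the lists below were chosen with earlier results of these data known, so such counts and medians are a description. In the authors' deposited table of 305 genes, 5 of the 10 were present, with log2 fold changes of -2.10 for Ccl2, -1.81 for Ccl7, -1.47 for Cxcl1, -2.16 for Cxcl2 and -1.76 for Cxcl10. The authors' deposited table gives adjusted p-values for these of 1.42e-17, 7.91e-10, 0.000638, 0.00781 and 0.00102 in the same order. No gene with a log2 fold change, Yap CKO over control, closer to 0 than 0.587 is listed in the authors' deposited table.

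Against C57 retinas, the genes were far higher in both P60 groups, apart from Cx3cl1, which was moderately higher. Because both comparisons use the same C57 libraries, their values are given side by side. All 10 genes passed as higher in control than in C57 retinas, against 23.1% of all genes. All 9 genes tested passed as higher in Yap CKO than in C57 retinas, against 20.3% of all genes, and Cxcl2 had too few reads there for the count filter. Genes with few or no C57 reads pass the filter only through the P60 group, so these counts are a description. Over the 9 genes tested in both comparisons, the median log2 fold change was 7.51 for Yap CKO over C57 and 7.99 for control over C57, against 0.02 and 0.03 over all genes. With genes of few or no C57 reads set at their lower bound or count ratio, the medians over the 10 genes were 6.19 for Yap CKO and 6.60 for control.

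Ccl2 had 3533 reads over the Yap CKO libraries and 15312 over the control libraries, against 1 read over the C57 libraries, in C57 2. That made its normalized level 1.17e+03-fold that of C57 in Yap CKO (95% counting interval 210 to 4.63e+04) and 5.03e+03-fold in control retinas (903 to 1.99e+05). Such intervals cover counting error only. Ccl7, Cxcl1 and Cxcl2 had 0 reads in all C57 libraries, so their folds are lower bounds set against 3 counts over that group. Ccl7 was at least 86.1-fold higher in Yap CKO and at least 301-fold higher in control than in C57 retinas. For Cxcl1 the bounds were 21.2-fold in Yap CKO and 59-fold in control, and for Cxcl2 they were 14.1-fold in Yap CKO and 64.1-fold in control. Cxcl10, with 2 C57 reads, was 198-fold the C57 level in Yap CKO (54.6 to 1.63e+03) and 664-fold in control retinas (184 to 5.48e+03).

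Ccl3, Ccl4, Ccl12 and Csf1, which edgeR did not call between Yap CKO and control retinas, were also well above C57. Ccl3, with 3 C57 reads, was 119-fold the C57 level in Yap CKO (40.7 to 580) and 146-fold in control retinas (50 to 711). Ccl4, with 1 C57 read, was 274-fold in Yap CKO (49.1 to 1.09e+04) and 296-fold in control retinas (53.1 to 1.17e+04). Ccl12 was 60.9-fold higher in Yap CKO and 41.2-fold higher in control than in C57 retinas, by the edgeR fits. Csf1 had 5.96 to 7.62 CPM in C57 retinas, and was 6.06-fold higher in Yap CKO and 9.10-fold higher in control retinas. Cx3cl1 had 211, 173 and 149 CPM in C57 retinas. Its log2 fold change was 0.51 for Yap CKO over C57 (adjusted p = 0.0325 by edgeR) and 0.46 for control over C57 (adjusted p = 0.0264 by edgeR). Both calls were lost when single libraries were left out, at adjusted p-values up to 0.123 and 0.101.

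Per kilobase of exon, the order of levels differed between the groups. In Yap CKO retinas Cx3cl1 was highest at 64.1 CPM per kb, followed by Ccl2 at 26.3 and Ccl12 at 20.7 CPM per kb, whose ranges overlapped. In control retinas Ccl2 led at 113 CPM per kb, above Cx3cl1 at 61.5 and Ccl7 at 28.9 CPM per kb. In C57 retinas Cx3cl1 had 45.3 CPM per kb, Csf1 1.28 and Ccl12 0.330 CPM per kb, and each was above the next in all libraries. Cxcl1 and Cxcl2 were lowest in both P60 groups and overlapped each other.

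No receptor of these ligands was called between the P60 groups: of 18 listed chemokine receptors 6 were tested and 0 passed, where DESeq2 also called 0 and 0 had an unadjusted p under 0.05. Csf1r, the Csf1 receptor, had 17.5, 23.3 and 14.98 CPM in Yap CKO, 19.0, 16.0 and 14.3 CPM in control and 25.5 to 29.6 CPM in C57 retinas. It was lower than C57 in Yap CKO (log2 fold change -0.53, adjusted p = 0.0499 by edgeR) and in control retinas (-0.69, adjusted p = 0.00566 by edgeR). Csf1r shares 873 exon bases with Hmgxb3 on the opposite strand. Cx3cr1 had 7.81 to 9.33 CPM in Yap CKO, 7.86 to 8.79 CPM in control and 10.4 to 11.99 CPM in C57 retinas. Ccr2, the receptor of Ccl2, was low, at 0.126 to 1.14 CPM in Yap CKO and 0.267 to 1.03 CPM in control retinas, with 1 read over the C57 libraries. Cxcr2 had at most 4 reads and Cxcr3 at most 1 read in any library, too few to test.

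Csf1 reads came to 226% ± 63.3 of Csf1r reads in Yap CKO and 370% ± 26.1 in control retinas (SD, n = 3 each; exact permutation p = 0.1). Il34, the other ligand of Csf1r, had 16.0, 18.2 and 16.9 CPM in Yap CKO, against 14.1, 15.5 and 13.8 CPM in control retinas. Its log2 fold change of 0.23 did not pass (adjusted p = 0.251 by edgeR), and Il34 reads came to 42.3% ± 4.94 of Csf1 reads in Yap CKO and 24% ± 2.17 in control retinas.

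Other chemokine ligands were listed by symbol as a comparison. Of 27, 14 were tested between Yap CKO and control retinas and 0 passed by edgeR, 1 was called by DESeq2, and 1 higher and 2 lower had an unadjusted p under 0.05. Ccl5, a T-cell and monocyte attractant, had 0.657, 1.32 and 1.47 CPM in Yap CKO, against 4.94, 2.66 and 1.91 CPM in control retinas (log2 fold change -1.46, adjusted p = 0.158 by edgeR). Against C57, 6 of 11 tested passed as higher in Yap CKO and 6 of 11 in control retinas, among them Ccl6 (log2 fold changes of 3.90 and 3.23) and Cxcl13 (1.82 and 1.61).

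Of 23 listed cytokines and regulators tied to the induction of chemokine genes, inhibitors such as Nfkbia among them, 21 were tested between Yap CKO and control retinas. By edgeR 1 passed as lower, Fosl1, an AP-1 subunit, with 86.3, 88.7 and 92.8 CPM in Yap CKO, against 150, 177 and 158 CPM in control retinas (log2 fold change -0.86, adjusted p = 0.0188). At an unadjusted p under 0.05, 9 were lower, against 9.25% of all genes, and DESeq2 called 7 lower, against 3.38% of its genes. Il1b, a cytokine that induces Ccl2 and Cxcl1, had 1.39, 1.16 and 1.14 CPM in Yap CKO, against 4.76, 1.89 and 4.09 CPM in control retinas (log2 fold change -1.54, adjusted p = 0.0965 by edgeR). For Nfkbia, an inhibitor and target of NF-kappa-B, the log2 fold change was -0.72, with an adjusted p of 0.0738 by edgeR.

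Markers of the leukocytes that make or follow these ligands were read beside them. Microglial markers summed to 77.6 to 95.8 CPM in Yap CKO, 78.1 to 84.6 CPM in control and 105 to 111 CPM in C57 retinas. Monocyte and macrophage markers summed to 18.1 to 36.5 CPM in Yap CKO, 17.6 to 27.5 CPM in control and 2.998 to 3.55 CPM in C57 retinas. Between Yap CKO and control retinas 0 of 10 microglial and 0 of 6 tested monocyte markers passed by edgeR. At an unadjusted p under 0.05 the counts were 1 and 0, and by DESeq2 they were 1 and 0, with that microglial marker higher in Yap CKO. Of the 10 microglial markers, 6 passed as lower and 1 as higher in Yap CKO than in C57 retinas. Of all 15840 genes tested there, 3202 passed as lower. In control against C57 retinas 5 markers were lower and 0 higher, and 3547 of all 15820 genes passed as lower. The homeostatic microglial markers P2ry12 and Tmem119 had log2 fold changes over C57 of -3.99 and -3.27 in Yap CKO and of -4.41 and -2.64 in control retinas. Neutrophil markers summed to at most 1.40 CPM in Yap CKO, 0.920 CPM in control and 1.55 CPM in C57 retinas. Red blood cell markers summed to 23.1 to 210 CPM in C57 retinas. In Yap CKO they summed to 7.40 to 14.9 CPM and in control retinas to 6.88 to 15.2 CPM. The part of these cells in the chemokine levels was not tested.

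**Figure D5:**
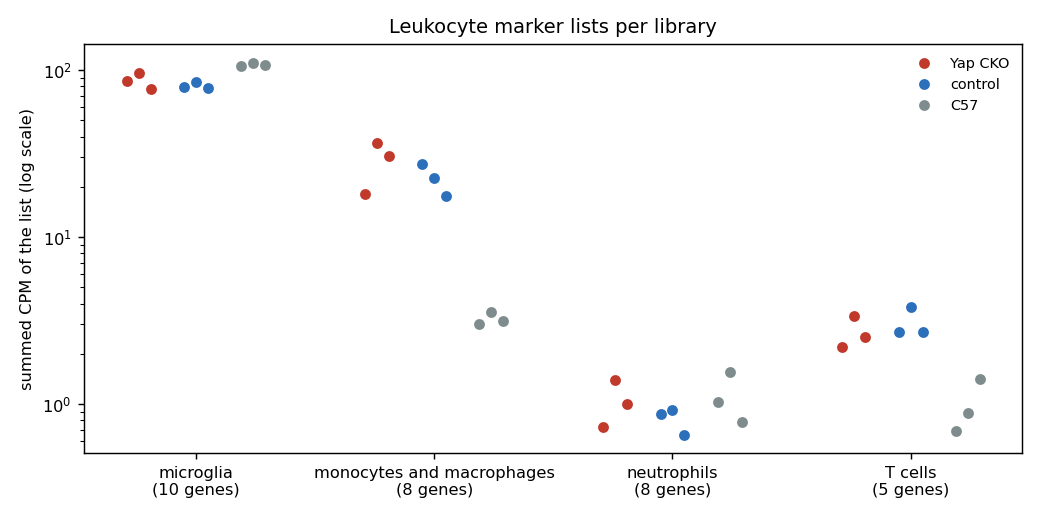
Summed CPM of 4 leukocyte marker lists in each library on a log scale, with Yap CKO, control and C57 side by side. The monocyte and macrophage list is higher in every P60 library than in any C57 library, and the Yap CKO and control points overlap for each list.

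The genes with the most similar pattern were found by the root-mean-square difference of centred log2(CPM + 0.5) profiles among 11732 genes with a mean of at least 5 CPM. Over the 9 libraries the nearest to Ccl2 was Lif, a cytokine of the Il6 family (difference 0.46), then Fosl1 (0.66) and the adhesion molecule Icam1 (0.75). The nearest to Ccl7 was Cxcl10 (0.32). Over the 6 P60 libraries alone, Ccl2 and Ccl7 were nearest to each other (0.20). Csf1 was nearest to Abcb1b, a drug efflux pump, over the 9 libraries (0.13) and over the 6 (0.05). Ccl4, Cxcl1 and Cxcl2 were under the 5 CPM limit and were not compared.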

How the data were processed

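Bulk RNA-seq of 9 whole mouse retinas was used, 3 per group. Per the submitters' processing notes, HISAT2 2.1.0, featureCounts and edgeR were used with the genome build GRCm38. The deposited count table holds whole-number read counts per Ensembl gene, not normalized. The authors' deposited comparison table gives log2 fold changes, p-values and adjusted p-values for 305 genes, per the file headers, and its 9 columns of values per library were not used. 1 C57 column matched its group and no single sample, so it was used as a C57 library without a number (C57 3 here).

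Each comparison was fitted on its own 6 libraries with edgeR 4.0.16 (R 4.3.3): filterByExpr (minimum count 10, minimum total 15), TMM scaling, the quasi-likelihood test with robust estimation, and Benjamini-Hochberg adjustment over all genes tested at 0.05. SEs were taken from the F statistic. Alternatives were RLE and upper-quartile scaling, other count filters, DESeq2 1.42.0, limma-voom (limma 3.58.1), bias-adjusted deviances, 1 fit of all 9 libraries, the replicate block, leaving out each library and, against C57, thinning of the P60 libraries. All 10 genes are named in each comparison. From other lists the rule allowed genes that passed the threshold, at most the 4 with the smallest p, plus the receptors and Il34 whether or not they passed. Ccl5, Ccl11, Il1b and Nfkbia between Yap CKO and control fall outside that rule and were named after their values were seen. The genes and lists were chosen with earlier results of these data known. Labels give 1 retina per library and no animal, so p-values measure the spread between these samples. Promoters came from RefSeq (GRCm38.p6). The motif letters were chosen during the work: GGGNNNNNCC was searched first on 300-base windows, and the window of 250 bases and the narrower kappa-B consensus were adopted after those matches had been seen.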

Additional observations from a re-analysis of the deposited data

How the results depend on the processing

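For Yap CKO against control retinas, 33 genes and 2 of the 10 passed. The counts were 15 genes and 1 of the 10 with RLE scaling, with a filter of 1 CPM in 3 libraries, with limma-voom and with bias-adjusted deviances. They were 17 and 1 with upper-quartile scaling, 343 and 4 with no count filter, 785 and 4 with DESeq2, and 60 and 2 with 1 fit of all 9 libraries. Leaving out 1 library gave 0 to 1473 genes and 0 to 4 of the 10, with the highest counts without Yap CKO 3. Deviations from the group mean correlated at 0.493, -0.06 and 0.0176 between same-numbered Yap CKO and control libraries. Control 2 and Yap CKO 3, numbered differently, reached 0.459. Whether the numbers pair samples cannot be told from these values. The library names share no number between control and Yap CKO retinas, so the matching numbers come from the sample titles. With the replicate block 45 genes and 1 of the 10 passed, Cxcl2 (adjusted p = 0.0329 by edgeR), with Ccl2 and Ccl7 at 0.0788. The log2 fold change of Cx3cl1 was -0.03112 to 0.09942 with 1 library left out and reversed without Yap CKO 3. The cause of these changes was not tested. Of 150 values of single genes under an alternative, 127 kept direction and side of the threshold, 15 lost the call, 7 gained it and 1 reversed. All 15 losses were values of Ccl2 or Ccl7, the only genes with a call to lose. Most of the 127 were genes that stayed uncalled, so that count does not measure how stable the calls were.

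Against C57, 7202 genes and 10 of 10 passed for control, with 9 or 10 of the 10 under each alternative; 155 of 160 single-gene values kept their call, and the 5 others were Cx3cl1. For Yap CKO, 6419 genes and 9 passed, with 8 to 10 under the alternatives; leaving out 1 library gave 3905 to 8013 genes. A replicate block of same-numbered libraries, added after seeing the data, left 9 of the 10 in both. The C57 libraries came from another series and the labels give no pairing with P60 libraries, so that fit is no check. C57 depth limits levels there: 3 counts over the group equal 0.0764 CPM.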
